A study of Homo sapiens with 6 samples.

Results

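Replicate number 3 was compared with replicate number 1 in 22Rv1 cells, a human prostate cancer line, with the treatment held fixed. The comparison uses 4 of the 6 RNA sequencing libraries of the series, namely siCtrl and siMED12 of number 1 and siCtrl and siMED12 of number 3, chosen by the number in their labels. The remaining 2 libraries, both of number 2, served as an intermediate point and as additional information on the spread. All cells grew in RPMI-1640 with fetal bovine serum. They received 25 pmol of a pool of small interfering RNAs with Lipofectamine RNAiMAX 24 h after seeding, had their medium changed 6 h later and were lysed 3 days after transfection. siCtrl cells received a pool without a target and siMED12 cells a pool against MED12, a subunit that links Mediator to its kinase CDK8. Total RNA was captured by its poly(A) tail and made into strand-specific libraries. The labels do not state what a replicate number stands for, whether a passage, a day of transfection, an extraction or a sequencing run, and they do not say that equal numbers were handled together. The study describes its experiments as biological replicates in general, and the legend of one of its heatmaps mentions a batch correction without naming the batch. Each number is thus 1 pair of libraries, and no spread among repeats of a number could be measured. The p-values below rest on how far siCtrl and siMED12 disagree in their differences between numbers within these 6 libraries. The spread of each gene was also drawn toward that of other genes.

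Several classes of RNA carry information on the state of a culture or of an RNA preparation. Immediate-early genes such as FOS are transcribed within minutes of a stimulus and their mRNAs are short-lived. MYC drives cell growth and ribosome production from a labile mRNA. Mitochondrial mRNAs are copied from both strands of a small circular genome, and most of them receive short poly(A) tails. By contrast, 5.8S ribosomal RNA and 7SL RNA, the scaffold of the signal recognition particle, have no poly(A) tail and should largely be lost in a poly(A) capture. In bulk RNA, fewer cells that express a gene and less RNA per cell cannot be told apart.

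The targeted gene was checked first. MED12 was at 67.8, 77.7 and 72.6 CPM (read counts scaled to a common library size by trimmed means) in siCtrl of numbers 1, 2 and 3, and at 23.9, 15.0 and 30.1 CPM in siMED12. It was lower in siMED12 in each of the 3 numbers (log2 difference -1.68 ± 0.10 (SE)), and between numbers 3 and 1 it did not pass the threshold (log2 0.20 ± 0.12 (SE), adjusted p = 0.191 in edgeR's quasi-likelihood test). Number 3 was higher than number 2 by 0.30 (adjusted p = 0.0447), and the difference between 3 and 1 turned to -0.06 without siMED12 of number 3. That difference was called with only the 4 libraries of numbers 1 and 3 (0.20), without siCtrl of number 3 (0.58) and without siMED12 of number 2 (0.20). The libraries held between 16136699 and 17012788 counts each. Of the 12 markers of luminal prostate cells, all exceeded 10 CPM in at least 1 library. Basal, leukocyte and endothelial markers summed to at most 2.26 CPM each in any library. The 9 fibroblast markers summed to 27 and 27.1 CPM in number 1, 34.4 and 38.4 CPM in number 2 and 40.5 and 43.1 CPM in number 3, mostly from COL1A1 and LUM, and 6 of the 9 stayed under 1 CPM everywhere. The part of fibroblast markers in the differences below was not tested.

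Number 3 differed from number 1 across a large part of the transcriptome. Of 17901 tested genes, 3273 were higher in number 3 (18.3%) and 3751 were lower (21%), together 39.2%, at an adjusted p below 0.05 in edgeR's quasi-likelihood test with treatment as a block. In what follows, a value given without CPM is the fitted log2 difference of number 3 minus number 1, negative where number 3 was lower, and the first and second step are number 2 minus 1 and number 3 minus 2. Most of the differences were small. The median absolute log2 difference over all tested genes was 0.27, 54.5% of the called genes changed by less than 0.5 on the log2 scale, and 782 higher and 271 lower genes exceeded 1. For comparison, the median absolute log2 difference between the treatments in the same model was 0.20. Both libraries of number 3 lay above both of number 1 for 4743 genes (26.5% of those tested) and below both for 4912 (27.4%). The split of calls depended on scaling, since dividing by library size alone gave 2691 higher and 4825 lower genes. An offset for GC content and transcript length gave 2700 and 4230. DESeq2 called 2181 higher and 2498 lower genes, and leaving out siCtrl of number 3 left 2494 lower genes.

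The difference was shared by both treatments. The siCtrl pair and the siMED12 pair have no library in common, and across the 17901 genes their number 3 minus number 1 differences correlated with a Pearson r of 0.64 (Spearman rho 0.66), or 0.73 over the 16281 genes with a mean of at least 1 CPM. Genes are not independent replicates, and these coefficients are given as a description. In the siCtrl and siMED12 pairs, 77.6% of genes differed in the same direction. The steps from 1 to 2 and from 2 to 3 gave lower coefficients of 0.37 and 0.54.

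**Figure D1:**
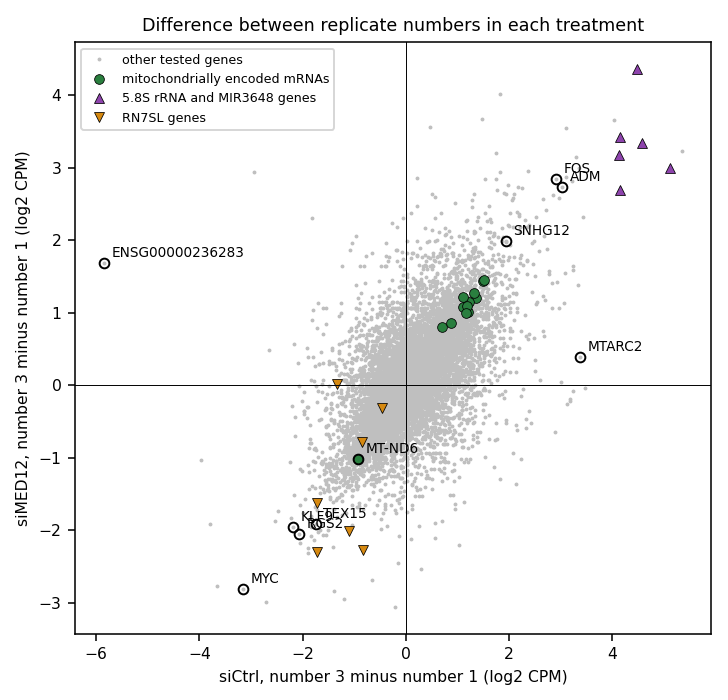
Each grey point is 1 of 17901 tested genes, with the log2 CPM difference of number 3 minus number 1 in siCtrl on the horizontal axis and in siMED12 on the vertical axis; colours mark 3 RNA classes and open circles mark named genes. Most named genes lie near the diagonal, whereas MTARC2 moved mainly in siCtrl and ENSG00000236283 in opposite directions.

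The shift was made in unequal steps. Against number 1, number 2 had 1280 higher (7.15%) and 1408 lower genes (7.87%), together 15%. Number 3 had 2986 higher (16.7%) and 3596 lower genes (20.1%) against number 2, together 36.8%. These 3 contrasts share libraries, so that their lists are given side by side and not as independent evidence. Number 2 lay between numbers 1 and 3 for 4495 (64.0%) of the genes called between 3 and 1. These genes were selected for their distance between numbers 3 and 1, which by itself favours an intermediate number 2. The share is therefore a description and not a sign of a graded shift, and it was not computed over all tested genes. Of the higher genes, number 2 lay within the first 25% of the distance for 713 and within the last 25% for 245. It lay beyond number 3 for 193, and for 829 it was on the opposite side of number 1. For the lower genes these numbers were 755, 282, 286 and 1221. Leaving out siMED12 of number 1 reduced the first step to 459 higher and 635 lower genes, so that the step from 1 to 2 depended strongly on single libraries. For the gene groups below, the steps are given where they differed.

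Genes for 5.8S ribosomal RNA were far higher in number 3 than in number 1, and had reached that level in number 2. RNA5-8SN2, a gene for 5.8S ribosomal RNA on chromosome 21, was at 4.70, 106 and 108 CPM in siCtrl of numbers 1, 2 and 3, and at 2.38, 56.5 and 51.1 CPM in siMED12. It was thus near zero in both libraries of number 1 and abundant in the other 4, with siMED12 at a lower level than siCtrl. The log2 difference was 4.47 ± 0.11 (SE) for number 3 against 1 (adjusted p = 1.06e-28) and 4.53 for number 2 against 1, whereas number 3 did not pass the threshold against number 2 (-0.06, adjusted p = 0.589). The other 3 tested copies of 5.8S, RNA5-8SN1, RNA5-8SN3 and an unnumbered copy, and the 2 tested copies of MIR3648, a small RNA gene on chromosome 21, were also higher, by 3.56 to 4.45 on the log2 scale. All 6 genes of this group, which was chosen after their values were seen, were called. The 5.8S sequence is shown because it holds no run of A longer than 2 bases and because the 4 tested copies are identical over all 153 bases, so that the counts of single copies depend on how reads with several matches were assigned, which is not stated. Together, the 11 5.8S and MIR3648 genes in the table took 0.00227% of counts in siCtrl and 0.00219% in siMED12 of number 1, 0.0449% and 0.0266% in number 2, and 0.0473% and 0.0233% in number 3. The 95% Wilson intervals reached from 0.00205% to 0.00251% for siCtrl of number 1 and from 0.0225% to 0.0240% for siMED12 of number 3. All such intervals cover counting error only.
RNA5-8SN2, chr21:8212572-8212724, plus strand, GRCh38, with every longest run of A (2 bases) in capitals: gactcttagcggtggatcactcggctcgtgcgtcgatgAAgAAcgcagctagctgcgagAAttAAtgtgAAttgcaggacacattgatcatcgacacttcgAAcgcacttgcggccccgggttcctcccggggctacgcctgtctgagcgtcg

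RN7SL1, the main gene of 7SL RNA, moved the other way and at the other step. RN7SL1 was at 135, 208 and 41.1 CPM in siCtrl and at 185, 201 and 37.3 CPM in siMED12 of numbers 1, 2 and 3, so that only number 3 was low. The log2 difference was -2.02 ± 0.085 (SE) for 3 against 1 (adjusted p = 6.40e-22), -2.38 for 3 against 2, and a small increase of 0.36 for 2 against 1 (adjusted p = 3.99e-04). Of the 7 tested RN7SL genes and copies, a group chosen after its values were seen, 4 were called, each of them lower in number 3. All RN7SL genes of the table took 0.0174% and 0.0240% of counts in siCtrl and siMED12 of number 1, 0.0239% and 0.0242% in number 2, and 0.00644% and 0.00635% in number 3, where the 95% Wilson intervals reached from 0.00607% to 0.00684% in siCtrl. These classes of RNA without a tail did not move together. Other tailless RNAs were scarce, with RMRP and SNORD17 the only further tested members of that list and neither called, and of the 24 tested replication-dependent histone genes 3 were higher and 1 was lower (median log2 0.01), whereas with the GC content and length offset 2 were called, both lower.

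**Figure D2:**
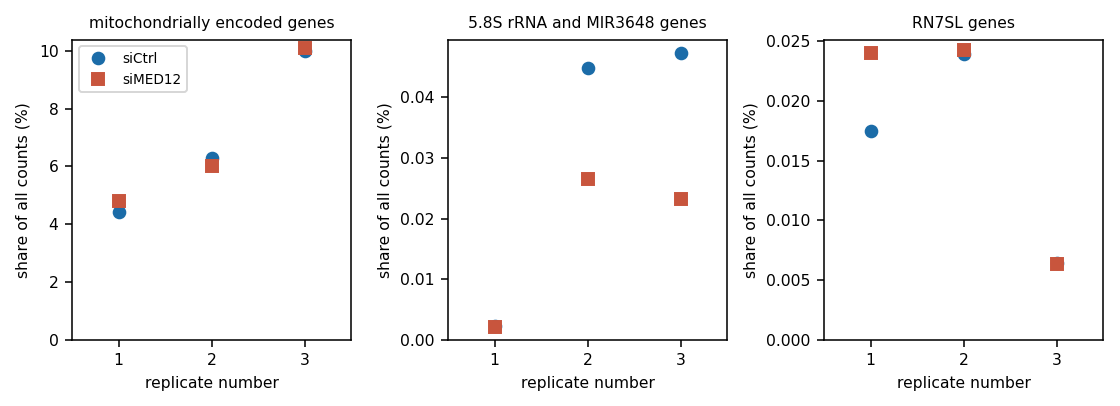
Share of all counts (percent, axes from 0) taken by mitochondrially encoded genes, by 5.8S and MIR3648 genes and by RN7SL genes in each library, by replicate number and treatment. The mitochondrial share was 4.43% and 4.79% in number 1 and 10.0% and 10.1% in number 3, the 5.8S share was low only in number 1, and the RN7SL share was low only in number 3.

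Of the 13 mitochondrially encoded mRNAs, 12 were higher in number 3 and 1 was lower, with a median log2 difference of 1.14 beside -0.01 over all tested genes. The 12 higher ones are all encoded on the heavy strand and specify subunits of the respiratory chain and ATP synthase. MT-CO1, a cytochrome c oxidase subunit and the most abundant of them, was at 11102, 15425 and 26060.3 CPM in siCtrl and at 11827, 13984 and 26100.2 CPM in siMED12 of numbers 1, 2 and 3. Number 2 lay between the others in both treatments, and number 3 exceeded number 1 by 1.19 ± 0.04 (SE) on the log2 scale (adjusted p = 4.84e-25). The differences of the 12 ranged from 0.75 for MT-ND2, a complex I subunit, through 1.09 for MT-CYB of complex III, to 1.47 for MT-ATP6 of ATP synthase and 1.49 for MT-ND5. The large mitochondrial ribosomal RNA, MT-RNR2, followed them with 1.24 ± 0.04 (SE). MT-ATP8 and MT-ATP6 overlap by 46 bases, as do MT-ND4L and MT-ND4 by 7, and their counts are not fully separate.

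MT-ND6, a complex I subunit and the only mRNA encoded on the light strand, was lower. It was at 184, 62.2 and 97.3 CPM in siCtrl and at 169.5, 51.1 and 83.7 CPM in siMED12 of numbers 1, 2 and 3. In both treatments number 1 was highest and number 2 lowest, without overlap between any of the 3 numbers. The log2 difference was -0.97 ± 0.061 (SE) for 3 against 1 (adjusted p = 2.57e-16), -1.65 for 2 against 1 and 0.68 for 3 against 2. Consequently, MT-ND6 fell at the first step, at which all 12 heavy-strand mRNAs rose, and rose with them at the second. Whether the counting used the strand of reads is not stated. Without it, reads of MT-ND6 could not be told apart from antisense reads of the heavy strand.

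Of 56 nuclear respiratory chain genes, 18 were higher and 3 were lower (median log2 0.06), and with the GC content and length offset 11 were higher and 19 lower. COX7B, a small cytochrome c oxidase subunit, was 0.84 higher on the log2 scale and NDUFB9 of complex I 0.46 higher, whereas ATP5F1C of ATP synthase was -0.20 and NDUFS1 of complex I -0.18, or -0.05 with no call under that offset (adjusted p = 0.414). NDUFB9 shares exonic sequence with a gene on the opposite strand. Among 29 genes for mitochondrial gene expression, 3 were higher and 10 lower (median log2 -0.10). POLG2, an accessory subunit of the mitochondrial DNA polymerase, was one of the higher ones with 0.59.

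MYC had the largest decrease among protein-coding genes of at least 10 CPM, and decreased at both steps. Its level was 217 and 92.5 CPM in siCtrl and siMED12 of number 1, 51.7 and 21.3 CPM in number 2 and 24.3 and 13.02 CPM in number 3. siMED12 was below siCtrl within each number, and the lower library of number 1 was still above both libraries of number 2. The log2 difference was -3.03 ± 0.084 (SE) for 3 against 1 (adjusted p = 9.94e-28), with -2.09 at the first step and -0.94 at the second. The treatment difference in the same model was -1.18. Some 194 exonic bases of MYC overlap an antisense RNA. In the network of MYC partners and antagonists, 5 of 13 genes were higher and 5 lower (median log2 -0.03). MXD4, an antagonist of MYC, was 0.44 higher but not called with the GC content and length offset (adjusted p = 0.0935), MLXIPL, a glucose-sensing relative, was 0.94 higher, and MGA, a further MAX partner, was -0.68. PVT1, the noncoding neighbour of MYC, was higher by 0.66.

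Nucleolar genes for ribosome production, many of them known MYC targets, moved less than MYC, and more of them were lower than higher. Of 50 nucleolar ribosome biogenesis genes, 8 were higher (16%) and 20 lower (40%), with a median log2 of -0.13. Over all tested genes, 18.3% were higher and 21% lower. With the GC content and length offset, 6 of the list were higher and 25 lower. WDR43, a processing factor for the small subunit, was -0.61 and POLR1B, a subunit of RNA polymerase I, -0.52. By contrast NOP56, a core protein of box C/D small nucleolar ribonucleoproteins, was 0.72 and POLR1C 0.41 higher. NOP56 shares 472 exonic bases with small nucleolar RNA and microRNA genes on the same strand. POLR1C shares 1009 with genes on the opposite strand. Of 34 translation factors, 4 were higher (11.8%) and 13 lower (38.2%), or 8 and 20 with the GC content and length offset. EIF5B was at -0.39 and EIF5 at 0.33. Of 31 proteasome subunits, 1 was higher (3.23%) and 12 were lower (38.7%), with a median log2 of -0.12. PSMD11 was at -0.38 and PSMA1, the higher one, at 0.29. With the GC content and length offset 2 were higher and 21 lower, and PSMA1 was called neither there (adjusted p = 0.0874) nor by DESeq2 or after division by library size alone. PSMA1 shares 814 exonic bases with another gene on the same strand.

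The immediate-early genes FOS and CCN1, the hypoxia-responsive ADM, and GADD45B and GPR3, which are on no list, were among the largest increases, and their increase was present in number 2. FOS, a subunit of the AP-1 transcription factor, was at 3.75, 39.1 and 29.0 CPM in siCtrl and at 4.22, 33.9 and 31.0 CPM in siMED12 of numbers 1, 2 and 3. Both libraries of number 1 were low and the other 4 were high, irrespective of treatment. The log2 difference was 2.91 ± 0.14 (SE) for 3 against 1 (adjusted p = 6.29e-20), 3.19 for 2 against 1 and -0.28 for 3 against 2 (adjusted p = 0.0313). ADM, which encodes the vasodilator peptide adrenomedullin, had the same course, at 3.51, 34.7 and 29.6 CPM in siCtrl and at 4.69, 33.8 and 32.0 CPM in siMED12 (log2 2.91 ± 0.14 (SE)). GADD45B, a stress-responsive regulator of p38 signaling, was at 11.5, 64.9 and 54.4 CPM and at 13.3, 63.0 and 57.8 CPM (log2 2.17 ± 0.097 (SE)). GPR3, a receptor that raises cyclic AMP, was 6.35-fold higher in number 3 than in number 1, and CCN1, a secreted matrix protein, 2.96-fold.

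In the whole list of 34 tested immediate-early genes, 16 were higher and 3 lower in number 3 than in number 1 (median log2 0.38), and 16 and 6 (median 0.17) with the GC content and length offset. At the first step 18 were higher and 2 lower, and at the second 4 and 9. Members differed widely. JUNB was at 34.3, 84.4 and 86.6 CPM in siCtrl and at 35.6, 88.2 and 81.5 CPM in siMED12, and FOSB, which unlike FOS was higher at both steps, at 2.80, 9.49 and 20.9 and 1.72, 7.13 and 11.2 CPM. JUN (log2 -0.14, adjusted p = 0.185) and EGR1 (log2 0.10, adjusted p = 0.532, and -0.02 with the GC content and length offset) did not pass the threshold, although EGR1 is one of the best known genes of this class. JUN was near 0 without siCtrl of number 3 (0.010), but was called lower with the GC content and length offset (-0.27, adjusted p = 0.00754), after division by library size alone (-0.21) and without siMED12 of number 3 (-0.29). These 4 genes were chosen after their values were seen. ID2, an inhibitor of basic helix-loop-helix factors, was 0.79 higher, with 0.97 at the first step, while its relatives ID1 (-1.34) and ID3 (-0.71) were lower at both. They belong to the list of TGF-beta and BMP targets, of which 4 of 16 were higher and 6 lower.

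**Figure D3:**
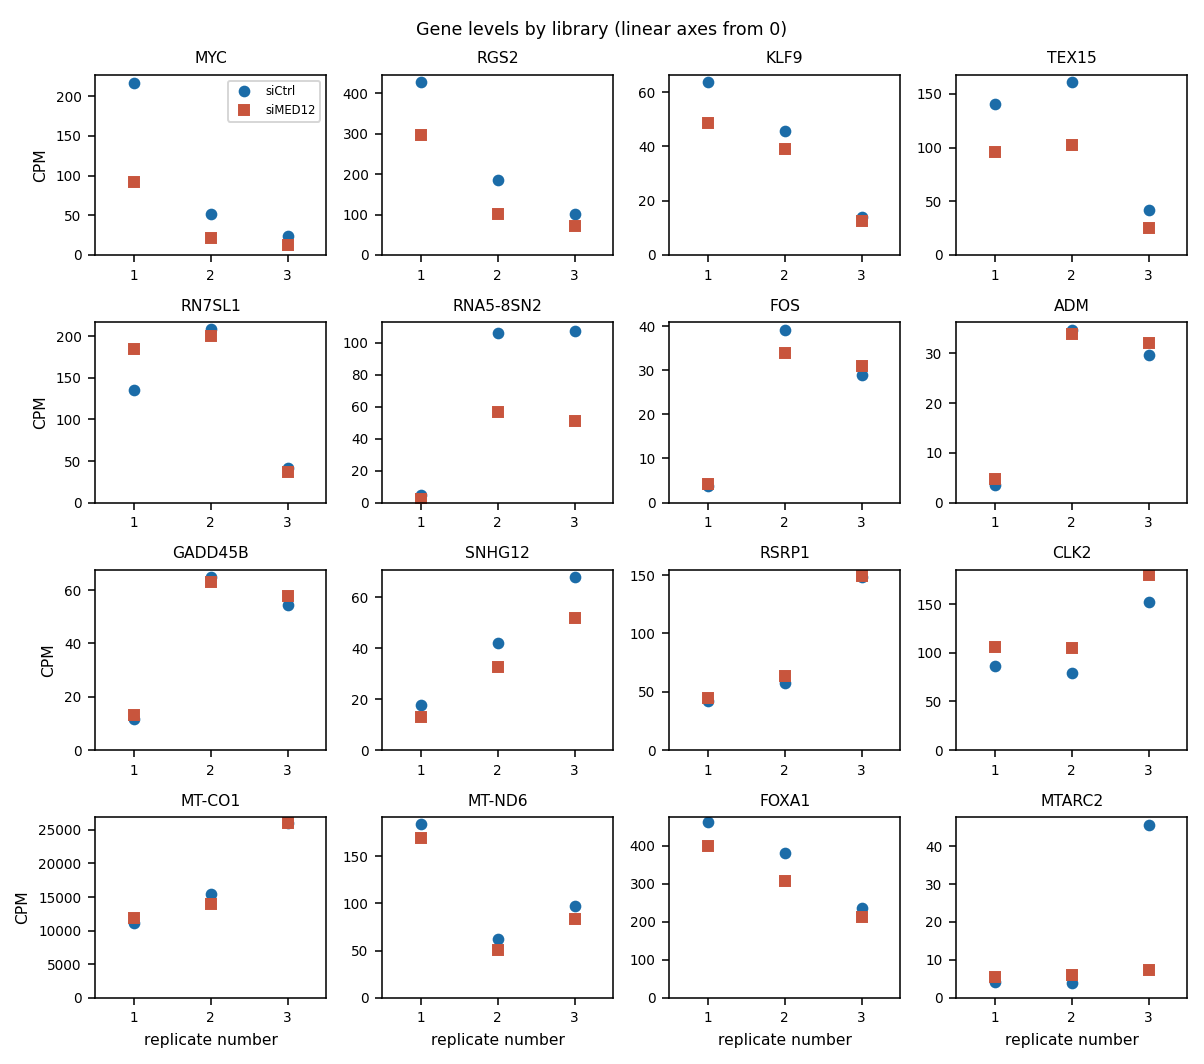
CPM of 16 genes in each of the 6 libraries, by replicate number (horizontal axis) and treatment (circles siCtrl, squares siMED12), on linear axes from 0. MYC and RGS2 decreased at both steps, KLF9, TEX15, RN7SL1 and FOXA1 mainly from number 2 to 3, FOS, ADM, GADD45B and RNA5-8SN2 had increased by number 2, and RSRP1, CLK2 and MT-CO1 were highest in number 3.

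The other protein-coding genes with the largest decreases were lower in siCtrl and siMED12 alike. RGS2, a brake on G protein signaling, was at 428, 186 and 102 CPM in siCtrl and at 295, 102 and 71.2 CPM in siMED12 (log2 -2.06 ± 0.063 (SE)). KLF9, a glucocorticoid-responsive zinc finger factor, was at 63.9, 45.7 and 13.9 CPM and at 48.8, 39.0 and 12.5 CPM (log2 -2.09 ± 0.1 (SE)), with -1.68 of the difference at the second step. TEX15, a gene known from meiosis, was at 141, 161 and 41.9 CPM and at 96.1, 102 and 25.3 CPM. Its first step was 0.14 (adjusted p = 0.124) and its second -1.97. ZNF92, a zinc finger gene, decreased instead almost entirely at the first step (-1.51 against -0.22). The remaining genes of this group were TNS4, MAP3K1, TMCC3, ARHGAP20, ZFHX4, the death receptor adaptor FADD and PPP1R10, a nuclear regulator of protein phosphatase 1, with log2 differences between -1.89 and -1.52. For FADD, 1011 exonic bases are shared with an antisense gene.

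RNAs that host small nucleolar RNAs in their introns were mostly higher in number 3. Of 23 tested host genes 16 were higher (69.6%) and 1 was lower (4.35%), TAF1D (log2 -0.42). Over all tested genes these shares were 18.3% and 21%. The median log2 difference of the list was 0.47 (0.50 in siCtrl and 0.47 in siMED12). With the GC content and length offset 14 were higher and 1 lower, and the median was 0.28. SNHG12 was at 17.7, 41.9 and 68.0 CPM in siCtrl and at 12.9, 32.6 and 51.7 CPM in siMED12 (log2 1.97 ± 0.095 (SE), adjusted p = 6.46e-20). SNHG1 was at 64.5, 108 and 172 CPM and at 52.5, 94.5 and 156 CPM (log2 1.49 ± 0.063 (SE)). Both rose at each step without overlap between the numbers. GAS5, a further host gene chosen after its values were seen, rose by 0.89 at the second step, whereas its first step of 0.11 did not pass the threshold (adjusted p = 0.295). Within SNHG1 and SNHG12, 612 and 399 exonic bases also belong to annotated small nucleolar RNAs on the same strand.

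Like many of the host genes, mRNAs of cytosolic ribosomal proteins start with a pyrimidine tract that couples their translation to nutrient supply. Of 79 of them, 62 were higher in number 3 and 1 was lower, with a median log2 difference of 0.21 (0.17 in siCtrl and 0.24 in siMED12). Compared with the background of 18.3% higher genes, 78.5% of the list was called higher. With the offset for GC content and length, 34 were higher and 8 lower, and the median fell to 0.056. RPL36A stood apart from the others, at 5.83, 15.6 and 27.0 CPM in siCtrl and at 4.22, 11.9 and 22.2 CPM in siMED12 (log2 2.29 ± 0.15 (SE)). It shares 557 exonic bases with GLA on the opposite strand and 333 with a readthrough gene on the same strand. RPL26 was 0.87 higher, and RPL12 was the one lower gene (-0.29, adjusted p = 0.0292), a call that was lost on leaving out either library of siCtrl number 1 or 3 or that of siMED12 number 1.

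Factors that choose splice sites were more often higher in number 3, while their share of lower genes was near that over all tested genes. Of 32 SR proteins, hnRNPs and splice regulators, 17 were higher (53.1%) and 7 lower (21.9%), with a median log2 of 0.20. Over all tested genes these shares were 18.3% and 21%. Between numbers 3 and 2, 16 of the list were higher and 6 lower. CLK2, a kinase of SR proteins, was at 86.2, 78.9 and 153 CPM in siCtrl and at 106, 105 and 180.0 CPM in siMED12, so that only number 3 stood out (log2 0.80 ± 0.06 (SE)). SRSF11 was 0.66 higher, whereas TRA2B and SON were -0.51 and -0.24. RSRP1, an arginine and serine-rich nuclear protein, was among the 12 largest increases of protein-coding genes, at 42.2, 57.6 and 149 CPM in siCtrl and at 44.5, 63.3 and 149 CPM in siMED12 (log2 1.78 ± 0.068 (SE)). The others in that group were PDLIM2 (2.01), FIGNL2 (1.98), C1QL4 (1.96), PFDN5 (1.64), a prefoldin subunit, and MTARC2. FIGNL2 and PFDN5 share 2118 and 475 exonic bases with antisense genes.

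Few lncRNA genes were lower in number 3, whereas their share of higher genes was near that over all tested genes. Of 2946 tested lncRNA genes, 521 were higher (17.7%) and 110 lower (3.73%), with a median log2 of 0.22. Over all tested genes, 18.3% were higher and 21% lower. Of 13358 nuclear protein-coding genes, 2510 were higher (18.8%) and 3551 lower (26.6%), with a median of -0.05. With the GC content and length offset, 414 lncRNA genes were higher and 167 lower, and their median was 0.10. Of 920 processed pseudogenes, 85 were higher (9.24%) and 61 lower (6.63%), which turned to 28 and 192 with that offset. The lncRNA share of all counts was 1.84% and 1.91% in number 1, 1.66% and 1.71% in number 2 and 2.18% in both libraries of number 3. At the first step only 47 lncRNA genes were higher and 170 lower, and at the second 630 were higher and 39 lower. MALAT1, a nuclear speckle RNA, was at 497, 565 and 1091 CPM in siCtrl and at 498, 383 and 911 CPM in siMED12 (log2 1.00 ± 0.063 (SE)). NEAT1, the scaffold of paraspeckles, which was named after its values were seen, rose by 0.76 from number 2 to 3. With PVT1, these were the 3 called of 7 tested nuclear-retained RNAs. MALAT1 shares 8731 exonic bases with antisense transcripts. Protein-coding genes also differed by their number of annotated retained-intron transcripts. The 5116 genes with no such transcript had a median log2 difference of -0.09, with 14.9% higher and 30% lower. The 1478 genes with 6 or more had a median of 0.04, with 30.8% higher and 21.1% lower. Across genes the Spearman coefficient of this number with the difference was 0.13, beside 0.37 for GC content. The number comes from annotation. Intron retention in these libraries was not measured, and a dependence on GC content or length was not tested.

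In lists of amino acid and lipid metabolism, more genes were lower than higher. The same held over all tested genes (18.3% higher and 21% lower) and over nuclear protein-coding genes (18.8% and 26.6%). Lower genes made up 51.2% of ATF4 targets, 50% of sterol and 62.5% of fatty acid synthesis genes. Of 41 targets of ATF4, the transcription factor of the amino acid response, 4 were higher and 21 lower (median log2 -0.20). At the first step 6 were higher and 2 lower, and at the second 3 and 22. ATF4 itself was at 393, 309 and 225 CPM in siCtrl and at 294, 213 and 173 CPM in siMED12 (log2 -0.78 ± 0.051 (SE)). The glutamine transporter SLC38A2 was -0.72, whereas DDIT3, a stress-induced partner of ATF4, was 0.50 higher. DDIT3 shares 413 exonic bases with antisense genes. The unfolded protein response of the endoplasmic reticulum had 8 of 24 genes higher and 3 lower, among them HERPUD1 (0.48) and DNAJB9 (0.62). Of 26 sterol synthesis genes 1 was higher and 13 were lower (median log2 -0.18), and of 16 fatty acid synthesis genes 1 was higher and 10 were lower (-0.26). MVK of the mevalonate pathway was -0.64 and FASN, the fatty acid synthase, -0.27.

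TXNIP, an inhibitor of glucose uptake, was at 282, 185 and 103 CPM in siCtrl and at 216, 162 and 99.6 CPM in siMED12, and decreased at both steps (log2 -1.29 ± 0.061 (SE)). With its paralog ARRDC4 (-0.25), both members of the list of glucose-sensing targets were lower, although ARRDC4 lost its call with the GC content and length offset (adjusted p = 0.288). Of 7 metallothionein and zinc genes, 4 were lower, among them MTF1, the zinc-sensing factor (-1.04), and MT2A (-0.50), and 1 was higher, the zinc exporter SLC30A1 (0.31). Of 23 NRF2 targets, 1 was higher and 10 were lower, with GCLM of glutathione synthesis at -0.70. Of 37 hypoxia and glycolysis genes, 8 were higher (21.6%) and 7 lower (18.9%), near the 18.3% and 21% over all tested genes. The counts of this list turned to 6 and 13 with the GC content and length offset and to 7 and 13 after division by library size alone. Here the hypoxia-inducible factor EPAS1 was at 35.5, 45.7 and 91.3 CPM and at 28.9, 31.2 and 61.8 CPM (log2 1.24 ± 0.083 (SE)), and its target VEGFA was 0.54 higher. Of 30 p53 targets, 12 were called at the first step, each of them higher, and at the second 3 were higher and 17 lower. Over all tested genes, 7.15% were higher and 7.87% lower at the first step, and 16.7% and 20.1% at the second. Between 3 and 1, 5 p53 targets were higher (16.7%) and 13 lower (43.3%), beside 18.3% and 21% over all tested genes. The share of higher genes was thus near the background. PMAIP1 was at 1.10, PLK3 at 0.91 and MDM2 at -0.47.

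**Figure D4:**
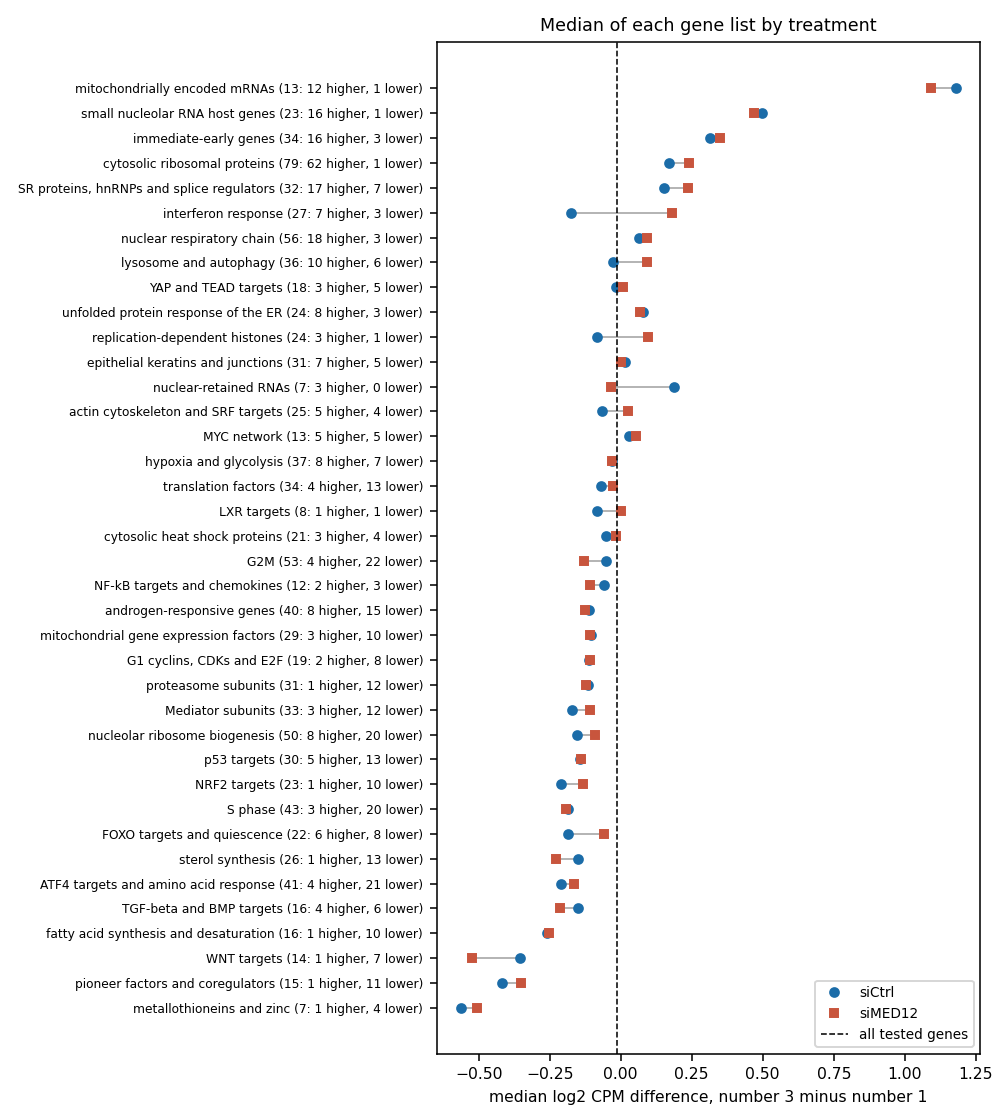
Median log2 CPM difference of number 3 minus number 1 for each gene list with at least 7 tested genes, in siCtrl (circles) and siMED12 (squares), with the number of tested genes and the numbers called higher and lower beside the name. The dashed line marks the median of all tested genes, and mitochondrial mRNAs, small nucleolar RNA hosts and immediate-early genes lie farthest to the right.

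In each of the 3 cell cycle lists, more genes were lower than higher, as was also the case over all tested genes (18.3% higher and 21% lower). Of 43 S phase genes, 3 were higher and 20 lower (median log2 -0.17). Of 53 G2M genes, 4 were higher and 22 lower (-0.09), and of 19 G1 cyclins, CDKs and E2F factors, 2 were higher and 8 lower (-0.11). CDC25A, a phosphatase that admits cells to S phase and a known MYC target, was at 50.0, 34.9 and 28.3 CPM in siCtrl and at 42.1, 28.1 and 17.8 CPM in siMED12 (log2 -1.01 ± 0.099 (SE)). DTL (-0.70), E2F8 (-0.82) and CDCA2 (-0.85) were lower too, whereas HELLS (0.32), CDCA3 (0.47) and CCNE1 (0.59) were higher. CCND1, a G1 cyclin and one of the most abundant lower genes, differed by -0.19. GAPDH, ACTB and ACTG1, often used as reference genes, differed by -0.20, -0.14 and -0.11.

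In a list of prostate pioneer factors, nuclear receptors and coregulators, 1 of 15 tested genes was higher and 11 were lower (median log2 -0.41), and at the second step 13 were called, each of them lower. FOXA1, a pioneer factor that opens chromatin for other factors, was at 462, 382 and 236 CPM and at 400.4, 306 and 214 CPM (log2 -0.94 ± 0.05 (SE), adjusted p = 2.04e-18). GATA3 was at 51.3, 42.1 and 23.3 CPM and at 53.2, 37.5 and 21.0 CPM (log2 -1.24 ± 0.093 (SE)). The coactivators CREBBP (-0.79) and EP300 (-0.77), named after their values were seen, and the epithelial factor GRHL2 (-0.49) were lower as well. GATA2 was the one higher gene (0.17), but was not called by DESeq2 and was at -0.03 with the GC content and length offset.

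Of 40 tested androgen-responsive genes, 8 were higher and 15 lower in number 3 (median log2 -0.09). KLK2, a kallikrein protease, was at 76.3, 61.9 and 93.9 CPM in siCtrl and at 26.3, 18.8 and 38.3 CPM in siMED12, lowest in number 2 and highest in number 3 within each treatment (log2 0.40 ± 0.084 (SE)). C1orf116, by contrast, was lower (-0.84). KRT7, a keratin of simple epithelia, was at 73.2, 66.3 and 173 CPM and at 18.5, 15.0 and 47.8 CPM, with a difference of 1.29 between numbers beside -1.97 between treatments. Of 31 keratins and junction genes, 7 were higher (22.6%) and 5 lower (16.1%), near the 18.3% and 21% over all tested genes. KRT8 was at 0.30 and TJP1 at -0.57. With the GC content and length offset the counts of the list turned to 6 and 10, and KRT8 lost its call (0.057, adjusted p = 0.294).

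Of 33 Mediator subunits 3 were higher and 12 lower (median log2 -0.12). CDK8, the kinase partner of MED12, was -0.55 and MED13, which joins the kinase module to the core, -0.72, whereas MED28 and MED24 were 0.28 and 0.21 higher. MED24 lost its call with the GC content and length offset (0.066, adjusted p = 0.429), with DESeq2 and after division by library size alone. Of 14 WNT targets 1 was higher and 7 were lower (median log2 -0.37), with DKK1 at -0.72 and RNF43 at -0.65. The counts of the remaining lists stand beside 18.3% higher and 21% lower over all tested genes. Near these shares lay the heat shock (14.3% and 19%), NF-kB (16.7% and 25%) and actin lists (20% and 16%). In the remaining lists, the counts of higher and lower genes were 3 and 5 of 18 YAP and TEAD targets, 3 and 4 of 21 cytosolic heat shock proteins, and 10 and 6 of 36 lysosome and autophagy genes. They were 6 and 8 of 22 FOXO and quiescence genes, 2 and 3 of 12 NF-kB targets, 7 and 3 of 27 interferon response genes, 5 and 4 of 25 actin cytoskeleton genes and 1 and 1 of 8 LXR targets. With the GC content and length offset the balance turned to 2 and 6 for the lysosome, 5 and 7 for the interferon and 5 and 13 for the actin list, and it moved to 4 and 10 for FOXO. Under that offset 6 heat shock, 4 NF-kB and 2 LXR genes were called, each of them lower. Division by library size alone gave 5 and 9, 4 and 5 and 3 and 11 for the lysosome, interferon and actin lists. Within these lists, CCN2 of the YAP list was 0.80, HSPA1A, which is nearly identical to HSPA1B, 0.34 (0.10 with no call under the offset, adjusted p = 0.105), HSF2 -0.40, CCNG2 of the FOXO list 0.92, NFKBIA -0.89, HLA-E 0.76 and TAGLN 1.03. TAGLN, MED28 and NDUFB9 share 2233, 3520 and 2188 exonic bases with antisense genes, and RNF43 shares 4326 with a gene on the same strand. Of the 8 tested neuroendocrine markers 3 were higher and 1 was lower, and of 12 luminal markers 5 were higher and 4 lower (2 and 4 with the offset). COL1A1 was at 14.9, 17.3 and 27.4 CPM and at 16.0, 17.6 and 26.7 CPM (log2 0.81 ± 0.12 (SE)), and LUM was 0.38 higher, these being 2 of 3 tested fibroblast markers. The 2 tested basal markers and the 1 tested leukocyte marker did not pass the threshold.

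Genes for zinc finger proteins named ZNF, a family chosen after its values were seen, were more often lower than higher. Of 455 tested, 48 were higher and 205 lower in number 3 than in number 1 (median log2 -0.31). Most of this was present in number 2, with 13 higher and 226 lower, while number 3 had 105 higher and 35 lower genes than number 2. Of the family, 228 genes lie on chromosome 19, many in clusters, and of these 22 were higher and 106 lower. The other 777 protein-coding genes of chromosome 19 had 261 higher and 82 lower genes (median log2 0.13), which turned to 130 and 271 (median -0.09) with the GC content and length offset. CTCF, a zinc finger protein of chromatin loops outside the ZNF names, was -0.56.

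The difference between numbers also followed the base composition and length of transcripts. Over 12827 nuclear protein-coding genes with a mean of at least 1 CPM, the median log2 difference of number 3 minus number 1 was -0.18 in the decile of genes with the lowest GC content (30.7% to 38.3%) and 0.21 in the decile with the highest (62.4% to 79.8%). In the lowest decile 7.79% of genes were higher and 42.6% lower, and in the highest 42.4% and 8.5%. The siCtrl pair gave medians of -0.19 and 0.22 and the siMED12 pair -0.16 and 0.20. For transcript length the medians went from 0.08 in the shortest decile (227 to 1337 bases) to -0.21 in the longest (7772 to 34630 bases). GC content and length are themselves related (Spearman rho -0.32), and their coefficients with the difference were 0.37 and -0.28 across genes, given as a description. Chromosomes 19, 22, 16 and 17, whose genes had the highest median GC contents, were the 4 with a positive median, and chromosomes 18 and 4 had the lowest medians (-0.15 and -0.14).

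**Figure D5:**
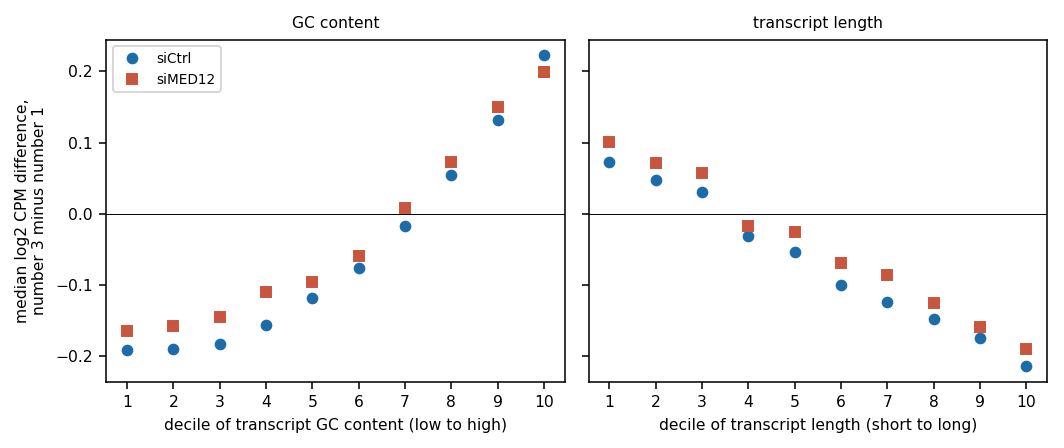
Median log2 CPM difference of number 3 minus number 1 in deciles of 12827 nuclear protein-coding genes ordered by GC content (left) and transcript length (right), for siCtrl (circles) and siMED12 (squares). Medians rose with GC content from -0.18 to 0.21 and fell with length from 0.08 to -0.21, in both treatments alike.

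A few genes departed from the agreement between treatments. MTARC2, a mitochondrial reductase, was at 4.28, 3.92 and 45.5 CPM in siCtrl and at 5.58, 5.91 and 7.32 CPM in siMED12 of numbers 1, 2 and 3. Its difference (log2 2.19 ± 0.33 (SE)) rested on siCtrl of number 3 and fell to 0.34, with no call, when that library was left out. An lncRNA on chromosome 2, ENSG00000236283, named after its values were seen, was at 35.0, 0.822 and 0.488 CPM in siCtrl and at 5.88, 18.1 and 19.2 CPM in siMED12, so that it was lower in number 3 in one treatment and higher in the other. Its pooled difference was -1.58, and 1.67 without siCtrl of number 1. With 1 pair of libraries per treatment, such differences between treatments were not tested.

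Calls of some small differences named above were lost when 1 library was left out, with the following log2 differences. Without siCtrl of number 1 these were ARRDC4 (-0.16), SLC30A1 (0.18), ATP5F1C (-0.15), MED28 (0.23), ACTG1 (-0.11), PSMA1 (0.10) and HSF2 (-0.29). Without siCtrl of number 3 these were POLR1C (0.28), ARRDC4 (-0.19), ATP5F1C (-0.17), LUM (0.48), ACTG1 (-0.082), PSMA1 (0.24) and HSF2 (-0.23). Without siMED12 of number 1 these were CCNE1 (0.38), GATA2 (0.064), NDUFS1 (-0.17), MED24 (0.10), LUM (0.20), ACTB (-0.12), ACTG1 (-0.095), MXD4 (0.32) and RNF43 (-0.50). Without siMED12 of number 3 these were CCNE1 (0.32), GATA2 (0.039), MED24 (0.1) and LUM (0.27).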

How the data were processed

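RNA of 22Rv1 cells was sequenced from 6 libraries, siCtrl and siMED12 in 3 replicate numbers each. The authors deposited raw read counts per gene for 62703 genes and, for the same libraries, log2 CPM values. These counts came from alignments made by the authors with Rsubread to GRCh38.p13, the build that their processing notes also name, and the authors used edgeR for testing. Whether reads with several matches were dropped and whether the strand was used in counting are not given in the sources used here. Both affect genes with identical copies or antisense partners. The deposited log2 values equalled those recomputed from the counts to within 4.96e-09.

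Counts were tested in edgeR 4.0.16 (R 4.3.3) by the quasi-likelihood test over all 6 libraries with treatment and replicate number as factors, which leaves 2 residual degrees of freedom. filterByExpr kept 17901 genes, and library sizes were scaled by TMM. Genes with a Benjamini-Hochberg adjusted p below 0.05 were called. The block for treatment is part of the comparison, because each number holds 1 library of either treatment. An exact two-sided permutation test of 2 libraries against 2 could not give a p below 0.333 and was not used. Values are TMM-scaled CPM. Errors are standard errors derived from the test, as the absolute fitted log2 difference divided by the square root of its F statistic. The totals of 16136699 to 17012788 counts limit the precision of low genes.

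Named genes were MED12, MYC, the mitochondrial mRNAs, the 12 protein-coding genes with the largest difference in each direction (called, mean of at least 10 CPM, groups not overlapping), up to 2 members per list and direction, and the 5 most abundant called genes per direction. Some of these are not reported here, and genes outside the rule are marked as such. The members and all lists were chosen with earlier results of these data known. The S phase and G2M lists came from Seurat 5.3.0. Gene positions, types, GC content and length came from Gencode 44, which held 99.9% of the tested genes. Alternatives covered scaling, filters, test, blocks, an offset for GC content and length, thresholds, and leaving out each library, with DESeq2 1.42.0 and limma 3.58.1 (limma-trend on the deposited log2 CPM) among them.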

Additional observations from a re-analysis of the deposited data

Results flagged for a closer look

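In 4 cases, results had opposite signs in the 2 treatments. With 1 library of each number per treatment, no difference between treatments was tested. The lncRNA ENSG00000236283 had a number 3 minus number 1 difference of -5.85 in siCtrl and 1.68 in siMED12 on the log2 CPM scale. TFEB, a transcription factor of lysosomal genes, had -0.87 in siCtrl and 0.14 in siMED12. The median of the 3 tested genes among other RNAs without a poly(A) tail was 0.52 in siCtrl and -0.99 in siMED12. The median of 27 interferon response genes was -0.17 in siCtrl and 0.18 in siMED12.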

How the results depend on the processing

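Of the recomputed counts of called genes, 87 stayed within 1.5 times the reported count and 29 did not. For number 3 against 1, DESeq2 gave 2181 higher and 2498 lower genes, no treatment block 690 and 562 (the treatment difference then counts as spread), and an absolute log2 difference above 1 gave 782 and 271. For 2 against 1, DESeq2 gave 660 and 637, no treatment block 17 and 6, an adjusted p below 0.01 gave 651 and 857, and an absolute log2 difference above 1 gave 106 and 185. The higher genes of that step numbered 618 with library size only and 1972 with the GC content and length offset, and their share of calls went from 47.6% to 23.8% and 60.5%. For 3 against 2, DESeq2 gave 1741 higher genes, no treatment block 69 higher and 12 lower, and an absolute log2 difference above 1 gave 704 and 76. The share of higher calls went from 45.4% to 32.5% with the GC content and length offset. Leaving out 1 library gave 2382 to 3689 higher and 2494 to 3965 lower genes for 3 against 1, with both lowest counts on leaving out a siCtrl library. It gave 459 to 1449 and 635 to 1511 for 2 against 1, lowest without siMED12 of number 1, and 2015 to 3116 and 2247 to 3433 for 3 against 2, lowest without siCtrl of number 3.

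MED12 in siMED12 against siCtrl stayed called in all 18 alternatives, from -1.92 to -1.38 on leaving out 1 library and at -1.66 with no replicate block (adjusted p = 0.0315 in edgeR's quasi-likelihood test). The replicate number is the comparison itself here, so that no other paired fit applies. Of 140 named genes, 82 kept their call in every alternative. For number 3 minus 1, the sign turned with the GC content and length offset for GATA2 (-0.027), EGR1 (-0.017) and the median of other protein-coding genes on chromosome 19 (-0.093). It turned on leaving out 1 library for MED12 (range -0.064 to 0.58), TFEB (-0.77 to 0.061), ENSG00000236283 (-5.72 to 1.67) and JUN (-0.29 to 0.010). MED12 turned without siMED12 of number 3, TFEB without siCtrl of number 1, and ENSG00000236283 and JUN without either of siCtrl 1 and 3. The cause of these changes was not tested.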
